A study of Mus musculus with 3 samples.

Results

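The Hedgehog genes described here are Shh, Ptch1, Smo, Gli1, Gli2, Gli3, Hhip, Boc, Cdon and Gas1, which are 10 of the 32285 genes of the count matrices. They were chosen by name, from what is known of the pathway, and not by a cut on their values, though earlier results of these data were known. They were followed over cell classes of the mouse palatal shelves, the outgrowths of the upper jaw that fuse into the secondary palate. All samples were wild-type C57BL/6J embryos, with no treatment named in the labels, and the stages, in days of gestation, were E13.5, E14.5 and E15.5. Each stage is a single droplet library of single cells fixed in methanol, made from the pooled shelves of 3 embryos. Stage and library therefore cannot be told apart, and values between stages describe these 3 libraries. Counts are of unique molecular identifiers (UMIs), short tags that mark single RNA molecules, and so are numbers of molecules and not of reads.

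Sonic hedgehog, the product of Shh, is a secreted ligand of the oral epithelium of the palate. It binds Patched1, which otherwise holds the membrane protein Smoothened inactive, with Boc, Cdon and Gas1 acting as co-receptors. Active Smoothened changes the processing of the Gli transcription factors at the primary cilium, and the genes for Gli1, Patched1 and the ligand-binding inhibitor Hhip are then transcribed, so that their RNA is widely used as a readout of the pathway.

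Cells were placed in classes by a gate on 10 marker genes per class, none of them a Hedgehog gene. A cell entered a class when at least 3 of its markers had a UMI, and more than of any other class. Mesenchymal cells numbered 319, 931 and 1440 in the libraries of E13.5, of E14.5 and of E15.5, the order kept below. Osteogenic cells, marked by genes such as Runx2 and Ibsp, numbered 9, 119 and 205, and chondrogenic cells 45, 57 and 24. Epithelial cells numbered 78, 84 and 197. The E13.5 library stood apart. Its neuronal cells were 1751 of 3583 kept cells (48.9%), against 113 (6.46%) and 174 (6.73%) later, and its mesenchymal cells were 8.90% of the library against 53.2% and 55.7%. The clusters behind a class also differed with stage. At E13.5, 59.9% of mesenchymal cells were in 1 cluster, led by Ptgds and Ccl21a, and 65.4% of epithelial cells were in an unnamed cluster led by the pituitary genes Pomc and Cga. That unnamed cluster held 25% of epithelial cells at E14.5 and 10.7% at E15.5. Sums of a gene's UMIs over the cells of a class and library are given as CPM, the UMIs of the gene scaled to the total UMIs of those cells, with exact Poisson 95% intervals that cover counting error only. CPM is not scaled to gene length, so levels are compared between cells and not between genes. Classes are set in order only where a library had at least 20 cells of the class, over 3 libraries, or 2 for osteogenic, endothelial and myeloid cells.

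The promoters of Ptch1 and Hhip are shown because both are genes of the feedback loop, and because Hhip was read against Ptch1 within the mesenchyme. Each line is the 250 bases before the start that RefSeq gives (GRCm38.p6), 5′ to 3′ on the gene's own strand, with the GC box (GGGCGG, or CCGCCC on the other strand) in capitals. The Ptch1 window is chr13:63565736-63565985 and the Hhip window chr8:80058009-80058258, both on the minus strand. In the GENCODE annotation of this build no exon overlaps either window, and the Ptch1 window lies in an intron of longer Ptch1 transcripts.
Ptch1: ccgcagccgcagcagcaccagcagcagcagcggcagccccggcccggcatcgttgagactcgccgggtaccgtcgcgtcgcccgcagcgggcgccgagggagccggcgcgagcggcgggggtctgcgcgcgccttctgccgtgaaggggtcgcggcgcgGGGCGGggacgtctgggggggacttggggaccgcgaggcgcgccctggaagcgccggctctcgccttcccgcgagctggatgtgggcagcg
Hhip: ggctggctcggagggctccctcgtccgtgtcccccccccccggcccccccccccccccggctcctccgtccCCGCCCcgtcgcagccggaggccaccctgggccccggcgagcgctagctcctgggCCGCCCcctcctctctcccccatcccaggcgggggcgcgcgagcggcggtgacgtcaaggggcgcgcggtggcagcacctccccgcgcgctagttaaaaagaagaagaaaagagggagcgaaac
Of the 10 genes, 7 had an entry in the promoter table. The GLI consensus GACCACCCA, searched on both strands, was in 0 of these 7 windows, and in 0.225% of 32851 windows of the same length. The GC box was in 5 of the 7 windows and in 32.7% of all windows. A match is a match of letters only, and so is its absence from 250 bases.

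Shh (ENSMUSG00000002633, GRCm38 chr5:28456815-28467256, minus strand) was the only ligand gene among the 10 and had few UMIs. There were 22, 2 and 7 UMIs in all barcodes of the 3 libraries, in 18, 2 and 3 barcodes. In epithelial cells its level was 16.1 CPM at E13.5 (5 UMIs, interval 5.24 to 37.7), 0 at E14.5 (upper limit 8.39 CPM at a floor of 3 counts) and 7.91 CPM at E15.5 (6 UMIs, 2.90 to 17.2). Those epithelial UMIs came from 3 cells at E13.5 and 2 cells at E15.5. All 5 cells were in the cluster led by the keratin genes Krt15, Krt5 and Krt13. Mesenchymal cells had 0, 1 and 1 Shh UMIs. Neuronal cells of E13.5 had 10 Shh UMIs in 9 cells, which is 1.59 CPM (0.763 to 2.92). The interval at E13.5 for epithelial cells lay above the interval for neuronal cells. Shh was too low to enter any test, so no comparison of Shh is given.

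Ptch1 (ENSMUSG00000021466, chr13:63508328-63573598, minus strand) encodes the receptor. In mesenchymal cells it was at 129 CPM at E13.5 (112 UMIs, 106 to 155), 238 CPM at E14.5 (528 UMIs, 218 to 259) and 195 CPM at E15.5 (724 UMIs, 181 to 210). Osteogenic cells were at 331 and 315 CPM at E14.5 and E15.5, and chondrogenic cells at 145, 220 and 137 CPM. Epithelial cells were at 42.0, 61.5 and 52.8 CPM. The mesenchymal and epithelial values did not overlap over the 3 libraries. Osteogenic values, from the 2 libraries with at least 20 osteogenic cells, did not overlap the mesenchymal ones either. In order of the mean, osteogenic cells (323 ± 11.4 CPM, SD, n = 2) stood above mesenchymal cells (187 ± 55.0, SD, n = 3) and chondrogenic cells (167 ± 45.9, SD, n = 3), whose ranges overlapped. Neuronal (85.3 ± 35.9), endothelial (65.7 ± 14.3) and epithelial cells (52.1 ± 9.81) followed with overlapping ranges, and myeloid cells (24.3 ± 20.9) were lowest. The SD is over libraries of different stages. The 157 neural progenitor cells of E13.5 were at 201 CPM (164 to 246), above the mesenchymal cells of that library.

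The co-receptor genes Boc (ENSMUSG00000022687, chr16:44485049-44558897, minus strand) and Cdon (ENSMUSG00000038119, chr9:35421128-35507652, plus strand) encode related cell-surface proteins that bind the ligand, and Gas1 (ENSMUSG00000052957, chr13:60174405-60177365, minus strand) encodes an anchored surface protein. Boc was at 63.3, 113 and 129 CPM in mesenchymal cells, at 54.9, 67.1 and 52.8 CPM in epithelial cells, and at 14.9, 36.0 and 25.5 CPM in neuronal cells. Mesenchymal and epithelial Boc values overlapped over stages, and each epithelial value was below the mesenchymal value of its own library. Cdon was at 89.7, 128 and 137 CPM in mesenchymal cells and at 38.5, 95.2 and 126 CPM in neuronal cells, so those ranges overlapped. Gas1 was at 61.0, 114 and 104 CPM in mesenchymal cells and at 71.0, 55.9 and 48.8 CPM in epithelial cells. Its epithelial value was above the mesenchymal one at E13.5 and below it in the later libraries.

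Smo (ENSMUSG00000001761, chr6:29735503-29761365, plus strand) encodes the transducer Smoothened. In mesenchymal cells its level was 101 CPM at E13.5, 110 CPM at E14.5 and 111 CPM at E15.5, and the widest interval, that of E13.5 (81.2 to 125), held the other values. Chondrogenic (109 ± 18.6 CPM, SD, n = 3), mesenchymal (108 ± 5.61, SD, n = 3) and osteogenic cells (106 ± 16.7, SD, n = 2) had overlapping ranges. All 3 classes were above epithelial (48.3 ± 14.2 CPM), endothelial (45.5 ± 28.6), neuronal (35.1 ± 8.0) and myeloid cells (22.1 ± 9.13), which overlapped with one another in that order.

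The 3 Gli genes encode the transcription factors at the end of the pathway: Gli2 (ENSMUSG00000048402, chr1:118834132-119053619, minus strand) mainly an activator, Gli3 (ENSMUSG00000021318, chr13:15463235-15730026, plus strand) mainly a repressor when processed, and Gli1 (ENSMUSG00000025407, chr10:127329882-127341974, minus strand) an activator that is itself a target. Gli1 was low, at 19.6 CPM (17 UMIs, 11.4 to 31.3), 31.1 CPM (69 UMIs, 24.2 to 39.4) and 28.3 CPM (105 UMIs, 23.2 to 34.3) in mesenchymal cells. Osteogenic cells were at 50.6 CPM (34.4 to 71.8) and 43.3 CPM (32.0 to 57.5), above the highest mesenchymal value. Epithelial cells held 5, 2 and 10 Gli1 UMIs, and neuronal cells 22, 3 and 2. Gli2 was at 122, 132 and 167 CPM in mesenchymal cells, 58.1, 97.9 and 54.1 CPM in epithelial cells and 32.9, 33.5 and 22.5 CPM in neuronal cells. Gli3 was at 288, 322 and 332 CPM in mesenchymal cells, 110, 204 and 183 CPM in epithelial cells and 70.5, 90.1 and 49.5 CPM in neuronal cells. For both genes every mesenchymal value was above every epithelial value, and every epithelial value above every neuronal value. Gli3 in neural progenitor cells of E13.5 was at 442 CPM (385 to 505), above the mesenchymal value of that library.

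Hhip (ENSMUSG00000064325, chr8:79965851-80058006, minus strand) encodes the inhibitor that binds the ligand at the cell surface. In mesenchymal cells it was at 14.95 CPM at E13.5 (13 UMIs, 7.96 to 25.6), 72.6 CPM at E14.5 (161 UMIs, 61.8 to 84.7) and 96.0 CPM at E15.5 (356 UMIs, 86.3 to 107). Epithelial cells held 0, 2 and 0 Hhip UMIs, and endothelial cells held 0 in each library in which they were ordered. Against the mesenchymal level of its own library, epithelial Hhip was at least 24.3-fold lower at E15.5, with the 0 set to a floor of 3 counts in that library. At E13.5 it was at least 1.54-fold lower, and at E14.5 the ratio was 0.0771 (0.00926 to 0.283). Osteogenic cells were at 62.0 and 115 CPM and chondrogenic cells at 44.7 (from 2 cells), 65.5 and 34.2 CPM, ranges that overlapped the mesenchymal one. At E15.5 the other gated classes with a Hhip UMI were muscle cells with 6 UMIs (195 CPM, 71.5 to 424), neuronal cells with 4, neural progenitors with 1 and myeloid cells with 1.

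**Figure D1:**
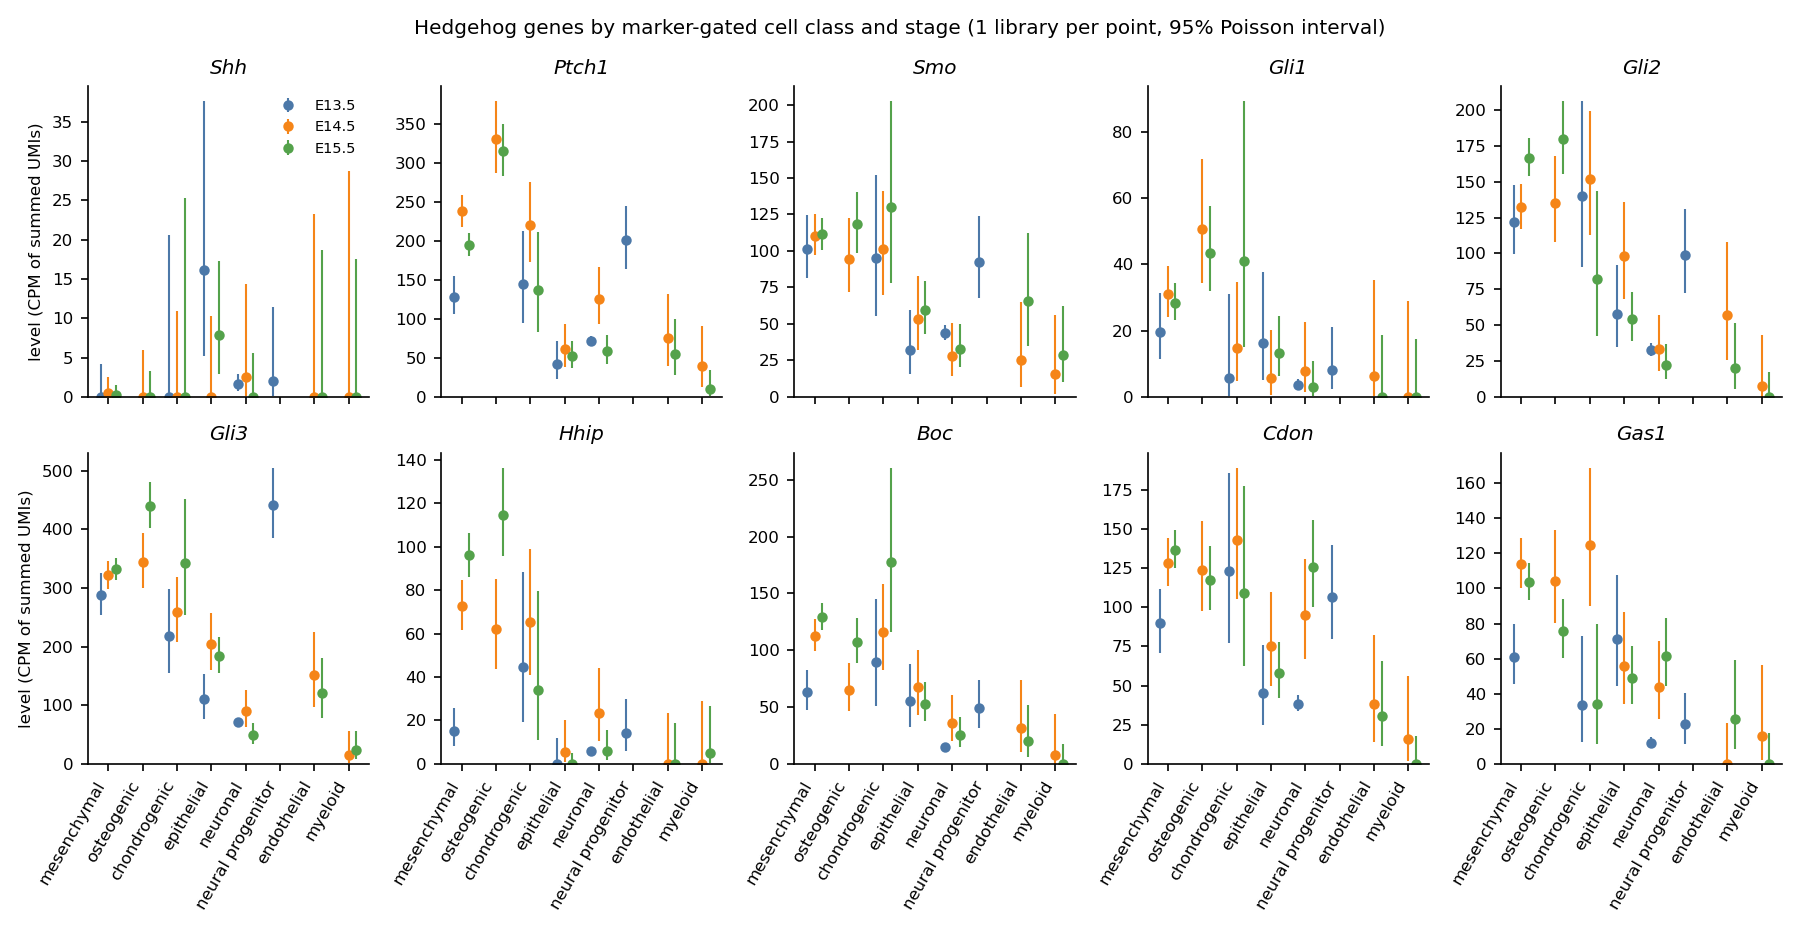
Level of each Hedgehog gene (CPM of summed UMIs, vertical axis, each panel on its own scale from 0) in marker-gated cell classes, with 1 point per library and exact Poisson 95% intervals. Ptch1 and Gli1 are highest in osteogenic cells, Gli3 in neural progenitors of E13.5 and osteogenic cells of E15.5 (442 and 440 CPM), Hhip lies near 0 in epithelial and endothelial cells, and Shh in epithelial cells is at 16.1, 0 and 7.91 CPM.

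The share of cells with a UMI was taken after every cell was thinned to 1500 UMIs, which left out shallower cells. In mesenchymal cells 16.1% (35 of 218 cells), 22.4% (126 of 562) and 20.3% (180 of 885) had a Ptch1 UMI, with 101, 369 and 555 cells left out. Unthinned, at median depths of 2226, 1817 and 1891 UMIs, the shares were 19.7%, 30.8% and 26.7%. Osteogenic cells, at higher median depths of 3276 and 3700 UMIs, had Ptch1 in 34.0% (24.7 to 44.3) and 35.2% (28.2 to 42.6) after thinning. In myeloid cells, which served with endothelial cells as the background from free RNA, the Ptch1 share was 13.3% (4 of 30 cells, 3.76 to 30.7) at E14.5, an interval that holds the mesenchymal share, and 2.22% (1 of 45) at E15.5. In endothelial cells it was 8.57% (3 of 35, 1.80 to 23.1) and 12.8% (5 of 39, 4.30 to 27.4), and both intervals hold the mesenchymal share of their library. At E14.5 the endothelial cells held 2432 CPM of the mesenchymal marker list and 859 CPM of the osteogenic list, against 609 and 219 CPM in myeloid cells. At E15.5 they held 813 and 141 CPM against 433 and 47.5 CPM, so both classes carried RNA of those lists, and its part in these shares was not tested. The share for Hhip was 1.38%, 9.07% and 10.5% in mesenchymal cells (8.57 to 12.7 at E15.5). At E15.5 it was 0 of 39 endothelial cells, which allows up to 7.69% at a floor of 3 cells and 9.03% by the exact interval. It was 0 of 45 myeloid cells (6.67% and 7.87%) and 0 of 151 epithelial cells (1.99% and 2.41%). The exact endothelial limit of E15.5 overlaps the mesenchymal interval, and the myeloid and epithelial limits lie below it. At E14.5 the mesenchymal Hhip interval was 6.83 to 11.8, and all 3 classes reached into it, with exact upper limits of 10.003% in endothelial cells (0 of 35), 11.6% in myeloid cells (0 of 30) and 7.40% in epithelial cells (1 of 73).

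Epithelial cells were compared with mesenchymal cells to ask where the receiving part of the pathway is transcribed. Of the 9 Hedgehog genes that passed the filter on low counts, 7 were lower in epithelial cells and 0 were higher. The receptor gene Ptch1 was 3.43-fold lower (log2 -1.78, SE 0.23, edgeR adjusted p = 1.91e-05, n = 3 libraries). The transducer gene Smo was 2.13-fold lower (edgeR adjusted p = 0.00321), Gli2 2.02-fold (0.0116), Gli3 1.84-fold (0.00510), Cdon 1.97-fold (0.0143) and Boc 1.72-fold (0.0394). Hhip passed too (edgeR adjusted p = 0.000117), with the bounds given above in place of a fitted fold. Gli1 at log2 -1.13 (SE 0.47, edgeR adjusted p = 0.0852) and Gas1 at -0.62 (SE 0.44, adjusted p = 0.320) did not pass. Of all 11374 genes tested, 13.0% were lower in epithelial cells, and 28.5% passed in either direction. The median log2 difference was -1.01 over the 9 genes, against 0.04 over all genes tested. Shh is missing from these counts, since it did not pass the filter.

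The test was edgeR's quasi-likelihood test on UMIs summed by class and library, with the library as a block and p-values adjusted over all genes by the Benjamini-Hochberg method. For each gene, all classes in the fit shared the same estimate of spread, on which the p-values rest. Since each library is of another stage, that spread is over stages and classes, and not over replicates of a stage. The number of genes lower fell to 4 without the E15.5 library (Ptch1, Smo, Gli3 and Hhip), was 5 without E14.5 and 9 without E13.5, and was 3 when Leiden clusters replaced the gate (Ptch1, Hhip and Boc). Other values moved with the class. Ribosomal protein genes held 13.6%, 12.1% and 12.7% of UMIs in epithelial cells against 8.63%, 7.89% and 7.08% in mesenchymal cells. Genes spanning over 100 kb held 13.9%, 18.7% and 18.3% against 22.7%, 28.1% and 29.7%. Of the 7 genes called lower, Gli2 and Gli3 span over 100 kb and the other 5 less, from 25.9 kb (Smo) to 92.2 kb (Hhip). The part of these values in the result was not tested. The 10 mesenchymal markers summed to 103, 716 and 397 CPM in epithelial cells, with Twist1, Twist2 and Col1a1 at 0 at E13.5, and to 3458, 8766 and 9766 CPM in mesenchymal cells.

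Neuronal cells were compared with mesenchymal cells in the same fit, and 8 of the 9 genes tested were lower, 0 higher. The largest differences were in Gli1, 5.35-fold lower (edgeR adjusted p = 0.000773), Hhip, 4.62-fold (0.00192), Gli2, 4.26-fold (2.21e-05), Gli3, 4.06-fold (2.38e-06), and Boc, 3.96-fold (2.37e-05). Smo was 2.62-fold lower, Gas1 2.59-fold lower and Ptch1 2.05-fold lower (edgeR adjusted p = 0.000766 for Ptch1). Cdon, at log2 -0.47 (SE 0.25, edgeR adjusted p = 0.177), did not pass. Of all genes tested 12.4% were lower in neuronal cells and 29.4% passed in either direction, and the median difference was -1.98 over the 9 genes against 0.07 over all. The mesenchymal marker list summed to 313, 1647 and 817 CPM in neuronal cells, and its part in the levels read there was not tested. Ribosomal protein genes held 6.30%, 5.51% and 5.27% of UMIs in neuronal cells, below the mesenchymal share in each library, and genes spanning over 100 kb held 25.2%, 29.95% and 30.96%, above it. The part of these values was not tested either. Most neuronal cells of E13.5 were in other clusters than most of those of the later stages. The cluster led by Fstl5 and Tex15 held 1.94% of them at E13.5, against 77.9% and 73.6% later. The cluster led by Fam155a and Rbfox1 held 28.7%, 8.85% and 5.75%.

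Osteogenic and chondrogenic cells are branches of the mesenchyme, and the fit found 0 of the 9 Hedgehog genes different in either. At an unadjusted p under 0.05 there was 1 gene in osteogenic cells, Ptch1, and 0 in chondrogenic cells, and DESeq2 also called 0 in both. How many of all genes lay under that unadjusted cut was not counted. Ptch1 was at log2 0.65 in osteogenic against mesenchymal cells (SE 0.22, edgeR adjusted p = 0.606), and Gli1 at 0.65 (SE 0.40, adjusted p = 1.0). Few genes passed here at all, 0.0528% of all genes for osteogenic cells, which had 2 libraries, and 0.563% for chondrogenic cells (0.519% higher and 0.044% lower). Within each library the osteogenic over mesenchymal ratio of Ptch1 was 1.39 (1.18 to 1.64) at E14.5 and 1.61 (1.42 to 1.84) at E15.5. For Gli1 it was 1.63 (1.03 to 2.52) and 1.53 (1.06 to 2.17). These intervals lie above 1 and cover counting error only. Gli3 was at 1.07 (0.913 to 1.25) and 1.32 (1.19 to 1.47), with the later interval above 1. Boc was at 0.579 (0.404 to 0.811) and 0.830 (0.673 to 1.02), and Gas1 at 0.916 (0.685 to 1.21) and 0.731 (0.570 to 0.927), each with 1 interval below 1. For Smo, Gli2, Hhip and Cdon the intervals of both libraries held 1. For chondrogenic cells the Ptch1 ratios were 1.13, 0.925 and 0.701, with every interval holding 1. At E15.5 the chondrogenic intervals lay below 1 for Gli2 (0.492, 0.253 to 0.865), Gas1 (0.329, 0.106 to 0.776) and Hhip (0.356, 0.115 to 0.839). At E13.5 that of Hhip lay above 1 (2.99, 1.08 to 7.79). For Smo, Gli1, Gli3, Boc and Cdon every chondrogenic interval held 1.

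**Figure D2:**
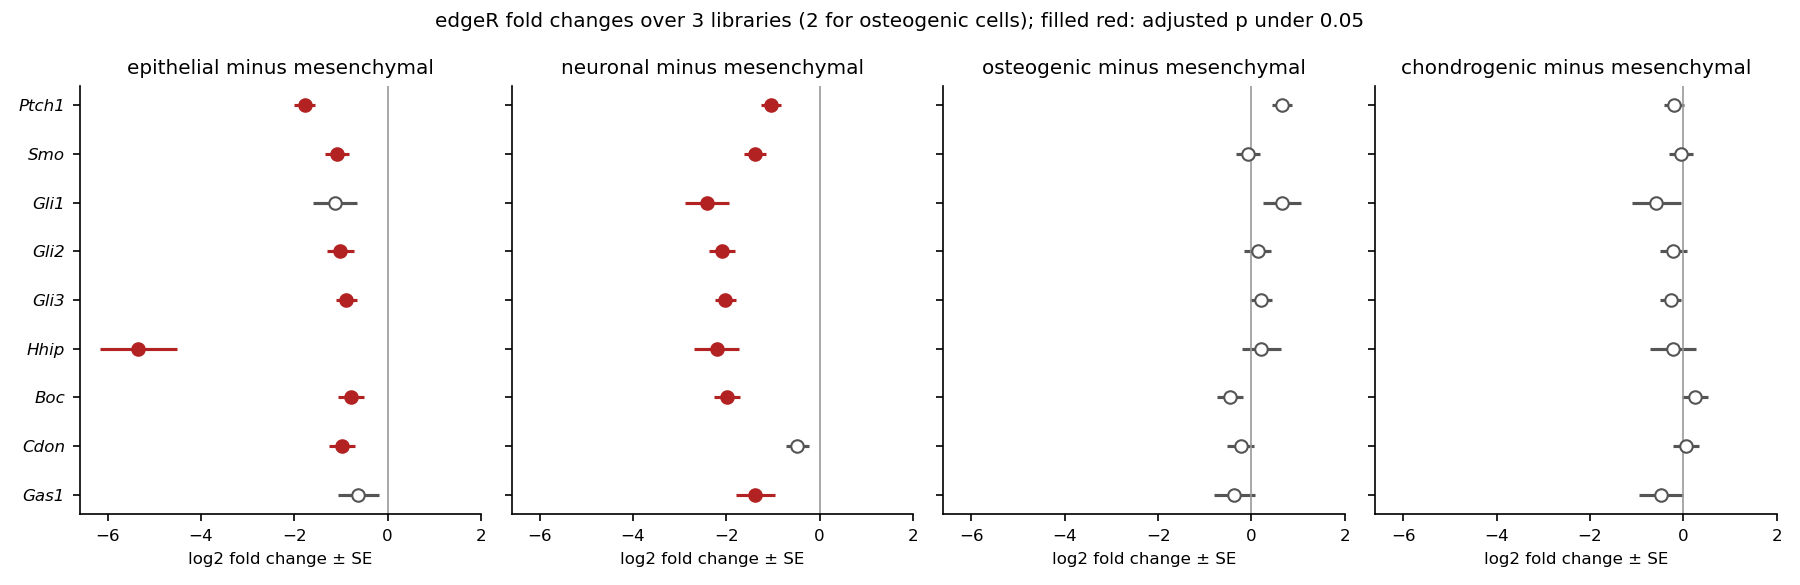
Log2 fold change (horizontal axis, ± SE) of each Hedgehog gene in 4 cell classes against mesenchymal cells, from edgeR over the libraries, with filled red points for an adjusted p under 0.05. Epithelial cells have 7 filled points and neuronal cells 8, all below 0, and osteogenic and chondrogenic cells have 0. The fitted position of Hhip in epithelial cells depends on the prior count, since 2 of its 3 libraries are at 0.

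Other genes of the pathway were read from 4 lists, and their counts stand beside 1481 of 11374 genes lower (13.0%) and 1766 higher in epithelial cells, and 12.4% lower and 17.0% higher in neuronal cells. Of 7 genes for ligands and their release, 5 were tested, and 2 were lower in epithelial cells. The other ligand genes Ihh and Dhh had 0 UMIs in epithelial cells of all 3 libraries. Scube1, for a secreted protein that helps release the ligand, had 1, 1 and 0 UMIs there (edgeR adjusted p = 2.80e-05), and Disp1, for the ligand exporter Dispatched, was 1.87-fold lower. Of 14 genes for reception and transduction, 10 were tested. Lrp2, for the endocytic receptor megalin, was higher in epithelial cells, at 29.0, 25.2 and 26.4 CPM against 0, 0.451 and 2.43 CPM in mesenchymal cells, and Evc, for a ciliary partner of Smoothened, was lower (1, 3 and 2 UMIs in epithelial cells). Of 8 cilium genes 1 was lower, Dync2h1, for the motor of transport within cilia (1.75-fold). Of 12 targets and palate genes linked to the pathway 9 were tested, and 6 were lower and 1 higher in epithelial cells. Among them the forkhead genes Foxd1 and Foxf1 had 0, 2 and 0 and 0, 1 and 2 UMIs in epithelial cells, and the cyclin gene Ccnd1 was 2.09-fold higher. Foxf1 was at 16.1, 31.6 and 26.7 CPM in mesenchymal cells. In neuronal cells 8 of the 9 were lower, led by Foxf1, with 2, 3 and 1 UMIs, and Osr2, for a palate transcription factor, with 20, 2 and 0 UMIs. In neuronal cells the reception list had 2 higher, Lrp2 and the kinase gene Gsk3b, and 2 lower, Evc and its partner Evc2. The cilium list had Kif3a higher and Ift20 lower, both for transport within cilia, and the ligand list had 0 in either direction. In osteogenic and chondrogenic cells 0 genes of any list passed.

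Mesenchymal cells were then split by whether a Ptch1 UMI was present after thinning, to ask which Hedgehog genes go with Ptch1 from cell to cell. Hhip was 3.13-fold higher in the cells with Ptch1, and it had the smallest p of the 5434 genes other than Ptch1. The parts held 35, 126 and 180 cells with Ptch1 and 183, 436 and 705 cells without in the 3 libraries. Hhip was at 38.1 against 3.64 CPM at E13.5, from 2 and 1 UMIs. It was at 169 CPM (116 to 239) against 50.5 CPM (34.7 to 70.9) at E14.5, and at 215 CPM (163 to 278) against 70.9 CPM (55.8 to 88.9) at E15.5. In the later libraries the intervals of the parts did not overlap, and in all 3 the part with Ptch1 was higher. The log2 difference was 1.65 (SE 0.24, edgeR adjusted p = 0.00710). Of the 8 Hedgehog genes tested, Hhip alone passed, in a comparison in which 0.202% of genes, Ptch1 itself among them, were higher and 0.184% lower, 0.386% in all.

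The other 7 did not pass edgeR. Gli1 was at log2 0.94 (SE 0.41, edgeR adjusted p = 0.309), and at E15.5 its level was 59.3 CPM (16 UMIs) with Ptch1 against 18.9 CPM (20 UMIs) without. Smo was at 0.60, Gli2 at 0.57 and Gli3 at 0.38, and their adjusted p lay between 0.188 and 0.272. Cdon was at -0.67, Gas1 at -0.63 and Boc at 0.02. At an unadjusted p under 0.05 there were 7 of the 8, all but Boc, and DESeq2 called 0. The share of all genes under that unadjusted cut was not counted, so the 7 stand without a background. None of the 4 pathway lists had a gene that passed. Beside Ptch1 and Hhip, 9 genes were higher. Among these were Sox6, for a transcription factor of cartilage, and Hmga2, for a growth-related chromatin protein, both named after their values were seen.

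The Hhip call did not hold under every setting. Its adjusted p ranged from 3.59e-06 to 0.874 over the alternatives. It was lost in DESeq2 (0.655), without the library block (0.874) and without the E15.5 library (0.0805), with log2 differences of 1.74, 1.72 and 1.80. Within clusters, Hhip was higher in the cells with Ptch1 in 9 of 11 pairs of cluster and library, which come from 2 libraries and rest on 0 to 18 Hhip UMIs in the cells with Ptch1. The same count was not taken over all genes, so it is given as a description. In the pair with the most cells at E15.5 Hhip was at 85.1 CPM in cells with Ptch1 and 86.4 CPM in cells without. Other values moved with the split. Ribosomal protein genes held 7.58%, 6.79% and 5.87% of UMIs in cells with Ptch1 against 8.86%, 8.35% and 7.62% in cells without. Genes spanning over 100 kb held 25.7%, 30.3% and 33.3% against 22.2%, 27.0% and 28.3%. Of the 1439 tested genes over 100 kb, 9 were higher and 3 lower, with a median log2 difference of 0.17. Of the 3995 shorter ones, 1 was higher, Hhip itself at 92.2 kb, and 7 lower, with a median of -0.07. The 10 osteogenic markers summed to 610, 1508 and 2193 CPM in cells with Ptch1 against 674, 1046 and 959 CPM in cells without, and 4, 5 and 5 of them had a UMI in cells with Ptch1, with Ibsp, Spp1, Bglap and Dmp1 at 0 in all 3 libraries. The part of these values in the Hhip result was not tested.

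**Figure D3:**
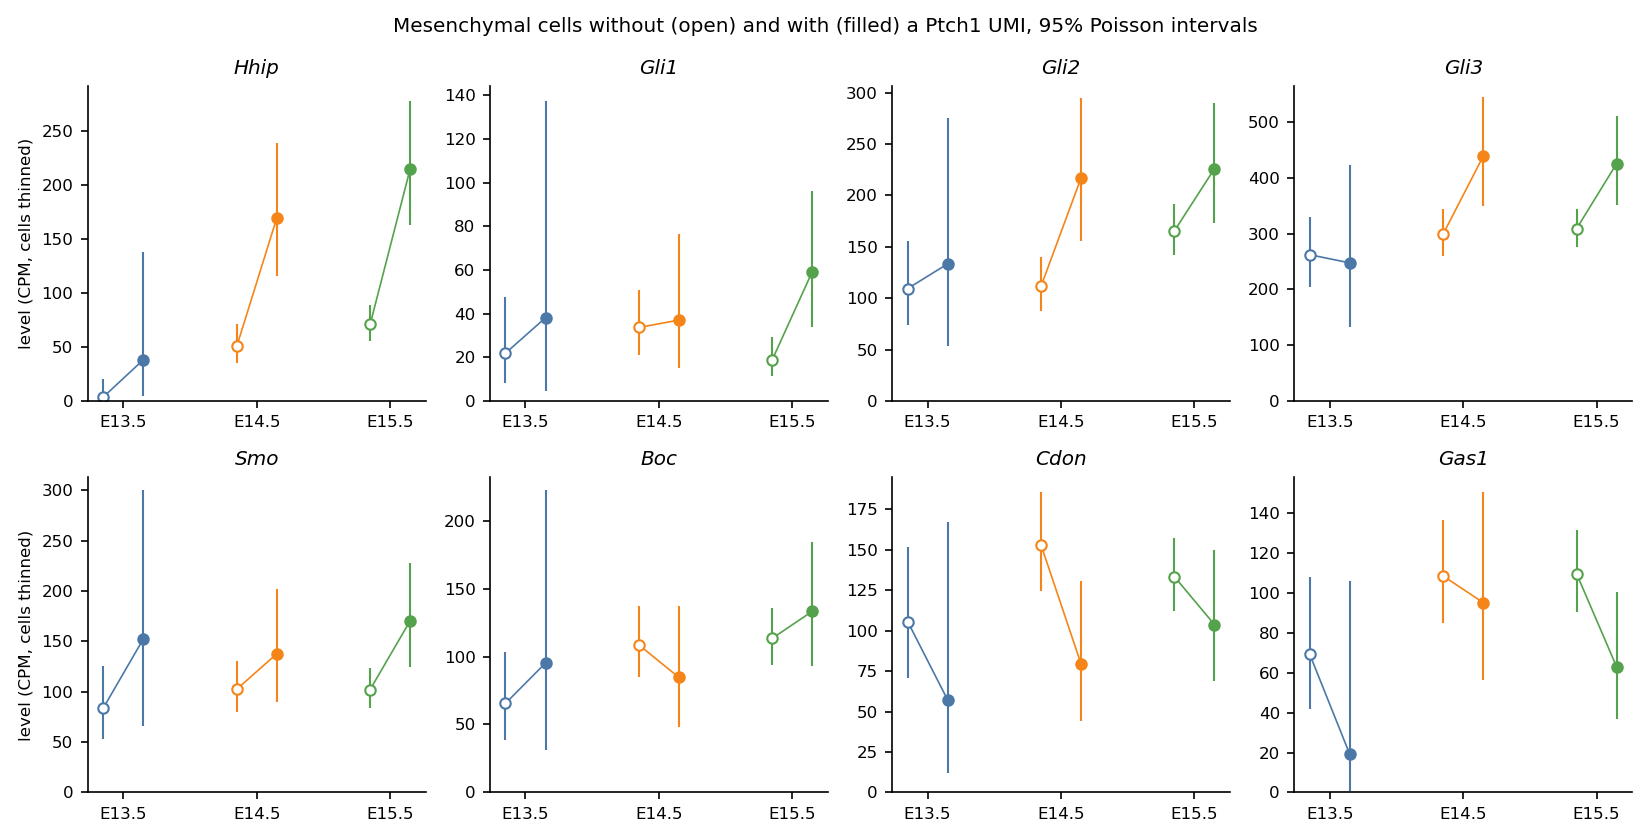
Level (CPM after thinning, vertical axis from 0) of Hedgehog genes in mesenchymal cells without a Ptch1 UMI (open points) and with one (filled points), by library, with exact Poisson 95% intervals. For Hhip the filled points at E14.5 and E15.5, at 169 and 215 CPM, lie above the open points at 50.5 and 70.9 CPM with no overlap of intervals.

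Stages were compared within mesenchymal cells by their CPM ratio, after adding 1 CPM to each level, and a 2-fold ratio stood in for a call, since 1 library per stage allows no test. From E13.5 to E14.5 Hhip was 4.61-fold higher (log2 2.21), the only 1 of the 9 genes with enough UMIs to be past 2-fold, beside 9.35% of all genes higher and 4.24% lower. The counting interval, for the ratio without the added 1 CPM, was 2.76 to 9.31. Intervals of the other stage ratios were taken in the same way. With a gate of at least 4 markers the log2 ratio of Hhip was 1.43, and for E15.5 against E13.5 it was 1.89 in place of 2.60. Ptch1 was 1.84-fold higher (1.50 to 2.29), Gas1 1.86-fold (1.39 to 2.57) and Boc 1.77-fold (1.33 to 2.43). Cdon was at 1.43-fold (1.11 to 1.86). Smo (0.852 to 1.41), Gli1 (0.925 to 2.89), Gli2 (0.865 to 1.37) and Gli3 (0.968 to 1.30) had intervals that held 1. Other values of the mesenchymal class moved with stage. Its own marker list summed to 3458, 8766 and 9766 CPM, genes spanning over 100 kb held 22.7%, 28.1% and 29.7% of UMIs, and ribosomal protein genes held 8.63%, 7.89% and 7.08%. Their part in the stage ratios was not tested.

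From E14.5 to E15.5 no gene of the 9 passed 2-fold, beside 1.42% of all genes higher and 1.46% lower. Ptch1 was at 0.821-fold (0.732 to 0.919), Hhip at 1.32-fold (1.09 to 1.60) and Gli2 at 1.26-fold (1.10 to 1.46). Over the whole span, E15.5 against E13.5, Hhip was 6.08-fold higher (3.71 to 12.2) and Boc 2.03-fold higher (1.55 to 2.76), and these were the 2 genes past 2-fold, beside 10.6% of all genes higher and 5.25% lower. The Hhip difference from E13.5 stood beside the change of clusters given above. When levels were averaged over 3 clusters with fixed weights, a setting chosen after the values were seen, the log2 ratio of Hhip was 3.77 from E13.5 to E14.5 and 3.34 from E13.5 to E15.5. From E14.5 to E15.5 it was then -0.43, against 0.40 over all mesenchymal cells, and that of Ptch1 was 0.16 against -0.28. From E13.5 to E14.5 that of Gli2 was -0.92 against 0.11 and that of Smo -0.69 against 0.12, so the sign turned for both. Over the same step Ptch1 went to 0.36 from 0.88 and Cdon to 0.18 from 0.51, while Gas1 (1.30 from 0.89) and Boc (1.01 from 0.82) passed 2-fold. For the later step Gli2 was at 0.95 in place of 0.34, Cdon at 0.79 in place of 0.09 and Gas1 at -0.51 in place of -0.13, and over the whole span Gli2 was at 0.02 in place of 0.45. Those 3 clusters held 85.3%, 35.2% and 30.1% of the mesenchymal cells. In neuronal cells 2 of the 8 genes with enough UMIs were at least 2-fold higher in the E15.5 library than in the E13.5 one, beside 19.4% of all genes. These were Gas1 at 4.77-fold (3.39 to 7.53) and Cdon at 3.21-fold (2.52 to 4.21). Ptch1 (0.821), Smo (0.757), Gli2 (0.692) and Gli3 (0.706) had ratios under 1, with intervals that held 1. Over the same libraries the neuronal class went from 116 to 905 CPM of the epithelial marker list, from 24.02 to 1042 CPM of the pituitary list (4 of 10 markers with a UMI at E15.5, Cga and Tshb among those at 0) and from 313 to 817 CPM of the mesenchymal list, and their part was not tested.

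Within the mesenchymal lineage the levels were described by cluster, with clusters made without the 10 genes. In the cluster led by Slc25a21 and Tmem132c Ptch1 was at 26.8 CPM (4 UMIs, 7.32 to 68.7) at E14.5 and 99.2 CPM (65.3 to 144) at E15.5, the lowest of the clusters with at least 20 cells at each of these stages, though at E15.5 the cluster led by Ibsp and Dqx1 was close at 103 CPM. Cdon was at 383 CPM (290 to 496) and 331 CPM (266 to 406) there, the highest of those clusters, and Gli1 had 1 UMI in each library. Hhip was at 47.0 CPM (7 UMIs) and 129 CPM (35 UMIs, 89.5 to 179) in this cluster, where the E15.5 interval held the 96.0 CPM of all mesenchymal cells. The same cluster had the highest level of the palate regulator Pax9, at 275 and 378 CPM. In the unnamed cluster led by Cntn6 and Pappa2 Ptch1 was at 398 CPM (329 to 478) and 315 CPM (275 to 360), and Gli3 at 585 and 590 CPM. The osteogenic cluster, led by Runx2 and Ibsp, had Ptch1 at 306 and 359 CPM, and Gli1 at 53.9 CPM (34.6 to 80.3) and 68.9 CPM (49.9 to 92.9). The cluster led by Pgm5 and Gpc5 had the highest Boc at E15.5, 219 CPM (192 to 249), and Gli2 at 251 CPM. These levels describe the clusters and were not tested.

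Beside the unnamed cluster led by Pomc and Cga, which had 4 and 0 Ptch1 UMIs at E14.5 and E15.5, nearly all epithelial cells were in a keratinised cluster led by Krtdap and Krt15 or in a cluster led by Bpifa1 and Lypd2. In the keratinised cluster Ptch1 was at 111 CPM (11 UMIs, 55.5 to 199) at E14.5 and 76.8 CPM (32 UMIs, 52.5 to 108) at E15.5. In the cluster led by Bpifa1 it was at 13.7 CPM (2 UMIs, 1.66 to 49.6) and 28.5 CPM (8 UMIs, 12.3 to 56.2). Gli1 had 1 and 9 UMIs in the keratinised cluster, the latter 21.6 CPM (9.88 to 41.0), and 0 and 0 in the Bpifa1 cluster, where the exact upper limit at E15.5 was 13.2 CPM, so the intervals overlapped. Gli2 was at 192 and 76.8 CPM against 41.2 and 32.1 CPM. Gas1 was at 40.5 and 40.8 CPM against 68.7 and 71.3 CPM, with overlapping intervals. The 6 Shh UMIs of E15.5 were also in the keratinised cluster.

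**Figure D4:**
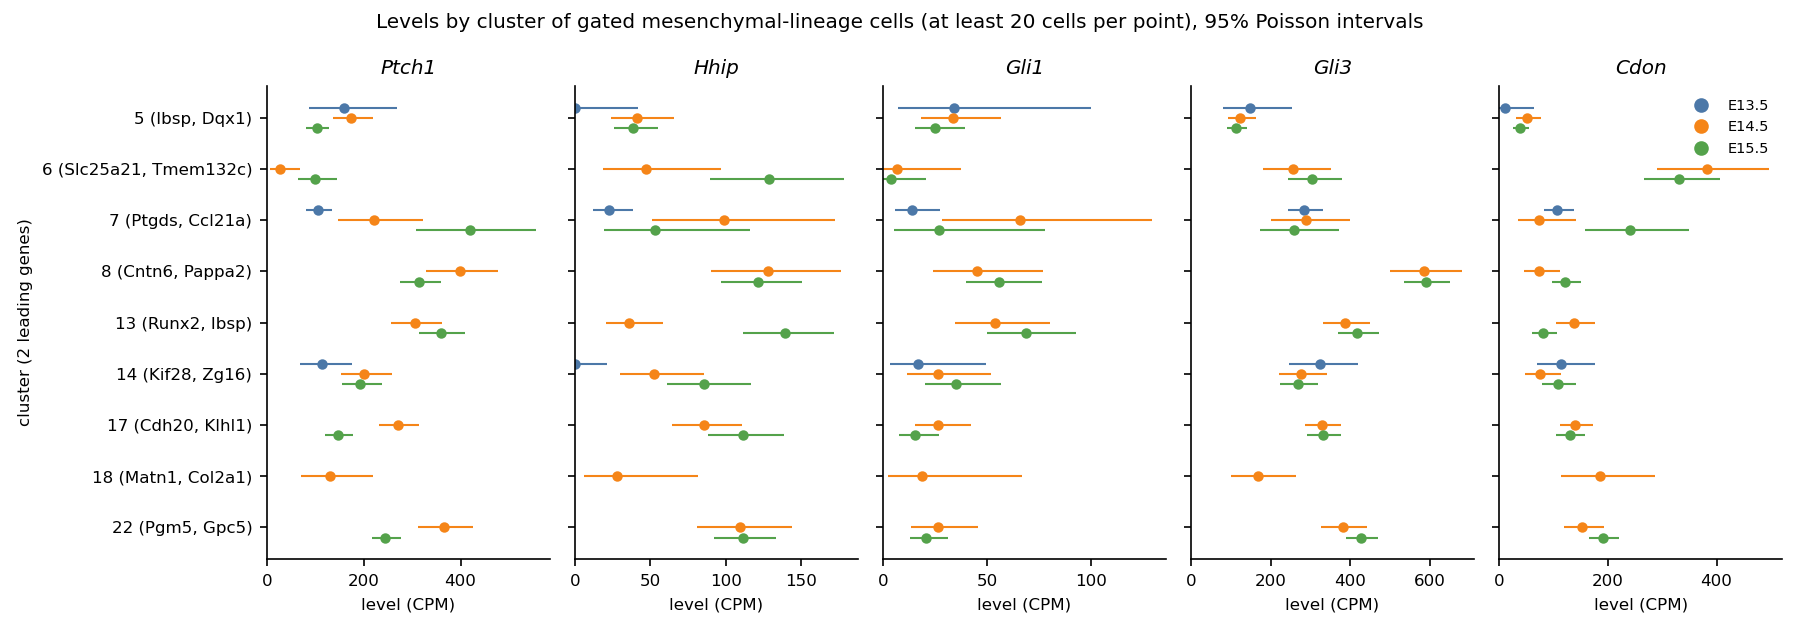
Level (CPM, horizontal axis from 0) of selected Hedgehog genes in clusters of gated mesenchymal-lineage cells, 1 row per cluster with its 2 leading genes, 1 point per library with at least 20 cells, and exact Poisson 95% intervals. The cluster led by Slc25a21 and Tmem132c has the lowest Ptch1 and the highest Cdon at E14.5 and E15.5.

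The genes whose pattern was most like each Hedgehog gene were ranked by Pearson's r of log2(CPM + 5) over 16 sums of class and stage, which share 3 libraries, so r is a description. Gli2 and Boc were close to each other (r = 0.966), and Gli3 was in the leading 3 for Smo (0.928) while Gli2 was in the leading 3 for Gli3 (0.929). The gene nearest to Ptch1 was Depdc5 (0.958), to Hhip Slc24a3 (0.956), to Gli2 Hs6st2 (0.969), to Cdon Dpyd (0.963), to Gas1 Tgfb2 (0.951) and to Gli1 Ptn (0.918). Shh, with 25 UMIs in these sums, was left out of the ranking.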

How the data were processed

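The authors deposited 1 matrix of UMI counts, not normalized, for each of 3 libraries. Cell Ranger 6.1.2 and mm10 are named in the submitters' processing notes, and the gene annotation behind the counts is not given in the sources used here. Total UMIs were 11472663 (4236 barcodes), 5293977 (2079) and 8313677 (3113), and a barcode held a median of 1735, 1614 and 1699 UMIs. Libraries shared 3, 1 and 1 barcodes. Barcodes with under 500 genes (544, 304 and 473) were left out. The automatic scrublet threshold (scanpy 1.11.5) called 0, 3 and 2 doublets, which is too few for a working caller. Cells with the top scores were removed instead, 0.8% per 1000 barcodes (109, 25 and 56).

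Counts were summed by class and library (at least 20 cells) and tested against mesenchymal cells with edgeR 4.0.16 (TMM, filterByExpr, R 4.3.3), with DESeq2 1.42.0 as an alternative, at an adjusted p under 0.05. Cells were thinned to 1500 UMIs for shares and for the split by Ptch1. The edgeR fit was also run on simulated counts with the same spread for all genes and classes, and its outcome is not given here. Stage ratios used 1 CPM as a pseudocount, over genes with a mean of at least 5 CPM. Clusters came from Leiden clustering at resolution 1 with the 10 genes left out. Gene coordinates are those of GENCODE vM21 on GRCm38, matched by gene ID. The genes named are the 10 Hedgehog genes and, of the 4 pathway lists, up to 2 with the largest fold change in each direction among those that passed. The members, the pathway lists and the markers were chosen with earlier results of these data known. Nothing in the labels says that the libraries come from separate experiments, and cells of 1 library are not replicates.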

Additional observations from a re-analysis of the deposited data

Results flagged for a closer look

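Hhip in chondrogenic cells went in opposite directions in different libraries. At E13.5 it was 2.99 times the mesenchymal level (1.08 to 7.79), at 44.7 against 14.95 CPM. At E14.5 the ratio was 0.902 (0.550 to 1.41), and at E15.5 it was 0.356 (0.115 to 0.839), at 34.2 against 96.0 CPM. The chondrogenic levels rest on 8, 22 and 5 UMIs, from 2 of 45, 8 of 57 and 3 of 24 cells, so the counting interval at E13.5 covers the UMIs of only 2 cells. Of the chondrogenic cells of E13.5, 51.1% were in the cluster led by Ptgds and Ccl21a, against 8.77% of those of E14.5 and 0 of E15.5. The part of that in the ratios was not tested, and the difference between stages was not tested.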

How the results depend on the processing

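The count of Hedgehog genes lower in neuronal cells was 7 or 8, and the count that differed in osteogenic or chondrogenic cells was 0, under all alternatives run. The count lower in epithelial cells, 7, was 3 with Leiden clusters and 4 to 9 when 1 library was left out. The count for cells with Ptch1, 1, was 0 in DESeq2 and without the library block, 2 with a gate of at least 4 markers (Hhip and Gli2), and 0 to 1 when 1 library was left out. The count past 2-fold was 3 with Leiden clusters and 3 with the cluster mix held fixed for E14.5 against E13.5, and 1 with Leiden clusters and 1 with 5 CPM added for E15.5 against E13.5. With the cluster mix held fixed, the log2 ratio reversed for Ptch1 (0.16) and Hhip (-0.43) at E15.5 against E14.5 and for Gli3 (-0.29) at E15.5 against E13.5. For E14.5 against E13.5 the sign also turned for Smo (-0.69), Gli2 (-0.92) and Gli3 (-0.16), and for E15.5 against E13.5 for Smo (-0.49). From E14.5 to E15.5 it turned for Gli3 (-0.13). With a gate of at least 4 markers Hhip was at log2 1.43 (E14.5) and 1.89 (E15.5) against E13.5, and Smo turned from 0.01 to -0.07 for E15.5 against E14.5. The cause was not tested. With another random draw in the thinning, an alternative chosen after the data were seen like the fixed cluster mix, Hhip was at log2 1.83. Without the filter on low counts the median over all genes shifted by -0.13 in epithelial and -0.16 in neuronal cells. The class and Ptch1 comparisons are paired within libraries through the library block. Shh and Gli1 rest on few UMIs, and the 35 cells with Ptch1 at E13.5 held 2 Hhip UMIs.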
